A study of Homo sapiens with 8 samples.

Results

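Endothelin, adrenomedullin and natriuretic peptide signalling was examined through 10 genes: the ligand genes EDN1, ADM and NPPB, the peptidase genes ECE1 and ACE, the receptor genes EDNRB, CALCRL and NPR1, and the receptor partner genes RAMP2 and RAMP3. The members were found by their gene symbol in the deposited count table, and 9 of the 10 had an entry among the 30386 genes of the table. The match by symbol used no values, but the members were chosen with earlier results of these data known. RAMP3 was not analysed here. All 8 samples derive from WTC-TJP1, which is an established line of human induced pluripotent stem cells, and so share 1 genetic background. Endothelial cells differentiated from it (iEC) were compared with matched retinal endothelial cells (iREC) in bulk polyadenylated RNA, all at passage 1. Each group held 4 samples, lettered C, D, E and F. The labels give both groups the same cell type, endothelial cells derived from human induced pluripotent stem cells, and do not say whether the samples of a group are separate cultures, so the p-values measure only the spread between these samples, which may be technical.

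These genes belong to peptide hormone systems through which endothelial cells act on vessel tone and permeability. Endothelin-1, made by endothelial cells as a precursor and released from it by endothelin-converting enzyme, constricts vessels through receptors on mural cells, while the B-type endothelin receptor on endothelium clears the peptide and promotes nitric oxide release. Adrenomedullin signals through the calcitonin receptor-like receptor, whose ligand preference is set by a RAMP partner, and raises cyclic AMP; natriuretic peptides signal through guanylyl cyclase receptors that make cyclic GMP, and a further receptor, encoded by NPR3, clears them.

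The upstream sequence of EDN1 is shown because EDN1 had the highest mean FPKM of the 3 ligand genes in both groups and its RefSeq window carried short motifs of factor families active in endothelium. It covers the 250 bases before the RefSeq start at position 12290361 of chromosome 6 (RefSeq, GRCh38.p14, plus strand), 2 bases from the start of the gene in the deposited table. It is written 5′ to 3′, with motif matches in capitals.
EDN1, chr6:12290111-12290360: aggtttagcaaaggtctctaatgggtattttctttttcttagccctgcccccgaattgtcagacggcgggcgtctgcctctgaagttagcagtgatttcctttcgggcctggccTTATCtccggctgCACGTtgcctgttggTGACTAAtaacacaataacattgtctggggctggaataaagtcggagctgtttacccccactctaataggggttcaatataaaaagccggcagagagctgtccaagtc
Reading from the left, the capitals mark TTATC, the reverse strand of the GATA core GATAA, at positions -136 to -132 from the start; CACGT, the reverse strand of the hypoxia-inducible factor core ACGTG, at -123 to -119; and TGACTAA, a match to the AP-1 core TGACTNA, at -108 to -102. Both strands were searched, and the 3 matches do not overlap. Of 35116 RefSeq windows of the same length, 20.4% held the GATA core, 18.5% the hypoxia-inducible factor core and 9.80% the AP-1 core, so each motif is common. A match describes the sequence only, and binding was not measured here. EDN1 has a pair of further RefSeq starts, at 12288019 and 12290014. The window of the first held 2 matches to the hypoxia-inducible factor core, that of the second held 1 match to the AP-1 core, and neither held the GATA core. Windows were found for 7 of the 9 measured members, 14 windows in all.

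Sequencing gave 14877502 to 16971865 counts per sample in iEC and 13739364 to 15987839 in iREC, so the limit that a count of 0 allows, 3 counts, came to 0.177 to 0.218 CPM (counts scaled to the size of the library), for counting error only. Levels below are CPM scaled by TMM, edgeR's correction of library sizes, or the deposited FPKM, which also divides by gene length, where genes are compared with each other, and errors of means are SD with n = 4. The endothelial markers were present in every sample: PECAM1 was at 1927 to 2605 CPM in iEC and 493 to 855 CPM in iREC, and all 12 markers of the list had entries. Of the 12, 3 were called higher in iREC (TEK, EMCN and CLDN5) and 5 lower (PECAM1, CDH5, EGFL7, ESAM and ROBO4), with TEK at 58.9 ± 20.6 and 833 ± 272 CPM and EMCN at 4.21 ± 1.89 and 432 ± 156 CPM in iEC and iREC. Their sum ran from 7552 to 9574 CPM in iEC and from 4575 to 10267.5 CPM in iREC. The library iREC F stood apart. It held the lowest endothelial sum and the highest sums of the fibroblast or mesenchymal list (7 of 7 with an entry, 4186 CPM, against 686 to 1353 CPM in the other iREC samples and 48.4 to 328 CPM in iEC), of the epithelial list (6 of 7, 4924 CPM, against 302 to 1117 CPM and 391 to 1174 CPM) and of the mural list (10 of 10, 1731 CPM, against 442 to 882 CPM and 173 to 239 CPM). The sum of the pluripotent list (7 of 7; NANOG at 0 in all iEC, TDGF1 at 0 in all iREC) was 39.0 to 91.0 CPM in iEC and 53.4 to 507 CPM in iREC, highest in iREC F. The sum of the blood or myeloid list (7 of 7; PTPRC, CD68 and MS4A6A at 0 in all iEC, SPI1 at 0 in all iREC) was 0.253 to 1.24 CPM and 10.1 to 26.3 CPM, and that of the list for retinal neurons, glia and pigment epithelium (7 of 10; PAX6 and RPE65 at 0 in all iEC) was 6.26 to 8.70 CPM and 2.49 to 10.2 CPM. LIN28A gave 482 CPM of the pluripotent sum in iREC F. In that sample POU5F1 and SOX2 were each at 0.393 CPM and NANOG and TDGF1 at 0. LIN28A was called higher in iREC and DPPA4 lower. Of the blood or myeloid sum in iREC, MS4A6A gave 6.41 to 24.3 CPM and PTPRC 0.794 to 2.75 CPM. SPI1, CD68, LYZ and CD14 were at most 0.214 CPM in any sample. Of the epithelial sum in iREC F, KRT8 gave 3025 CPM and KRT18 1538 CPM, with means of 304 and 314 CPM in iEC. In iREC F CDH1 was at 81.6 CPM and EPCAM at 3.28 CPM. KRT7 was called higher in iREC and KRT8, KRT18, KRT19 and EPCAM were not. POSTN gave 531 CPM of the fibroblast or mesenchymal sum in iREC C and 712 CPM in iREC E. In iREC F COL3A1 gave 1641 CPM and POSTN 1315 CPM. POSTN and LUM were called higher in iREC and COL1A1, COL1A2 and COL3A1 were not. The part of these lists in the results below was not tested.

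The comparison of iREC with iEC asks how these genes differ between endothelial cells and retinal endothelial cells of the same line. EDN1, ADM, NPR1 and EDNRB were higher in iREC and ECE1 was lower, 5 of the 9 members at an adjusted p under 0.05 in edgeR's quasi-likelihood test (4 higher, 1 lower). Of all 15330 genes tested, 25.0% were called at that threshold, 13.2% higher and 11.7% lower. NPPB, ACE, CALCRL and RAMP2 did not pass. The median log2 fold change was 0.99 over the 9 members and 0.02 over all genes tested. In 3 of the 9 members the groups did not overlap, with iREC above iEC for ADM and NPR1 and below for ECE1, against 29.1% of all genes tested. In bulk samples, fewer cells of a type and less RNA per cell cannot be told apart. Without iEC D or without iEC E the number of members called fell to 2, ADM and NPR1.

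**Figure D1:**
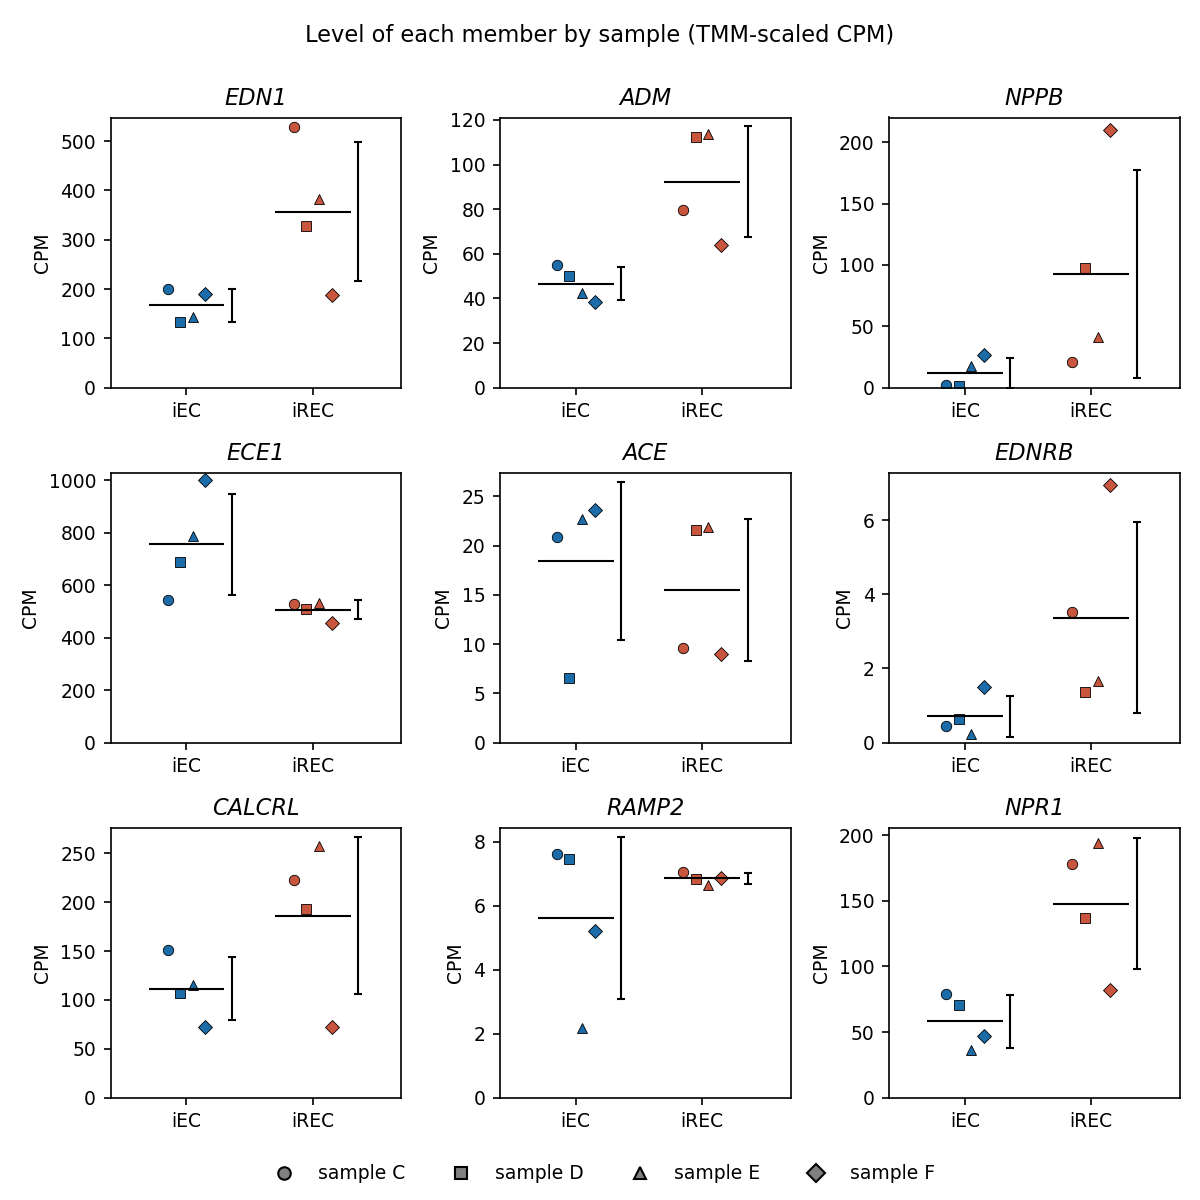
Level of each of the 9 measured members in each sample, in TMM-scaled CPM on linear axes from 0, with iEC and iREC side by side, 1 marker shape per sample letter, and the mean ± SD. The iREC samples of ADM and NPR1 all sit above iEC, those of ECE1 all sit below, and the other 6 genes overlap.

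EDN1 encodes the precursor of endothelin-1 and lies on chromosome 6 at 12290363 to 12297194, plus strand (ENSG00000078401, hg38). Its level was 200.4, 134, 143 and 189 CPM in the iEC samples, in the order C, D, E, F used throughout, and 528, 329, 382 and 187 CPM in the iREC samples. Of the iREC samples, 3 lay above every iEC sample, while iREC F lay within the iEC range. The mean rose from 167 ± 33.1 to 357 ± 141 CPM, a log2 fold change of 1.097 ± 0.29 (SE) or 2.14-fold (edgeR, adjusted p = 0.0217). On the FPKM scale EDN1 stood at 81.5 ± 16.8 in iEC and 172 ± 67.7 in iREC, which moved it from rank 450 to rank 124 among the 16828 protein-coding genes listed. The call held in all 10 alternative analyses of the full set of samples but was lost without iEC D (edgeR, adjusted p = 0.0538), iEC E (0.0650) or iREC E (0.0527), over a range of 0.00235 to 0.0650.

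ADM encodes the precursor of adrenomedullin, a vasodilator peptide that stabilises the endothelial barrier (ENSG00000148926, chromosome 11, 10304680 to 10307397, plus strand). It measured 54.8, 50.2, 42.6 and 38.5 CPM in the 4 iEC samples and 79.4, 112, 114 and 63.8 CPM in the 4 iREC samples. Every iREC sample lay above every iEC sample, with iREC F again the lowest of its group. The mean rose from 46.5 ± 7.34 to 92.4 ± 24.8 CPM, a log2 fold change of 0.99 ± 0.21 (edgeR, adjusted p = 0.00797). ADM was called in all 18 alternatives, including each fit that left out a sample, and its log2 fold change ran from 0.87 to 1.13 over them.

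NPPB encodes the precursor of B-type natriuretic peptide, best known as a product of cardiac muscle (ENSG00000120937, chromosome 1, 11857464 to 11858931, minus strand). Its level was 2.41, 1.71, 17.3 and 26.2 CPM in iEC and 21.0, 97.6, 41.3 and 209.7 CPM in iREC. The samples of each group differed more among themselves than for any other member, by 15.4-fold within iEC and 9.99-fold within iREC, and iREC C lay below iEC F. The means were 11.9 ± 11.9 and 92.4 ± 84.7 CPM, and the fitted log2 fold change of 2.96 ± 0.97 did not pass (edgeR, adjusted p = 0.0513). It passed in 8 of 18 alternatives, among them DESeq2 (adjusted p = 0.0277), over a range of 0.0221 to 0.106. The log2 fold change was 3.67 without iEC F and 2.16 without iREC F. Among the iREC samples, NPPB was ordered C, E, D, F, the same order as the fibroblast or mesenchymal and the epithelial sums, and in iEC both NPPB and these sums were highest in F and next highest in E; their part in the result was not tested. The cardiomyocyte list (7 of 9 with an entry) summed to 1.82 to 2.21 CPM in iEC and 2.75 to 30.1 CPM in iREC, of which TTN, also expressed outside the heart, gave 22.1 CPM in iREC F. In that list TNNT2 and MYL7 were at 0 in all iEC samples and MYH6 and MYL2 at 0 in all iREC samples. MYL7, an atrial myosin light chain gene, had 0, 6, 4 and 107 counts in iREC, 7.01 CPM in F, which is the order C, E, D, F of NPPB, and TNNT2 had 11 counts in iREC F and 0 in the others; the part of these genes in the NPPB result was not tested.

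Set side by side per length, the 3 ligand genes had the order EDN1, NPPB, ADM in both groups by mean FPKM. In iEC the NPPB mean of 17.3 ± 17.6 FPKM and the ADM mean of 16.96 ± 2.38 FPKM did not differ beyond their spread, and neither did the NPPB mean of 131 ± 121 FPKM and the EDN1 mean of 172 ± 67.7 FPKM in iREC. ADM in iREC was at 33.3 ± 8.75 FPKM.

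ECE1 encodes endothelin-converting enzyme 1, the membrane metalloprotease that releases endothelin-1 from its precursor (ENSG00000117298, chromosome 1, 21217247 to 21345572, minus strand). It measured 544, 687, 787 and 1001 CPM in iEC and 529, 508, 530.5 and 454 CPM in iREC. All iREC samples lay below all iEC samples, but iEC C was only slightly above iREC E, and the iREC samples were closer to each other than the iEC samples. The mean fell from 755 ± 192 to 506 ± 35.8 CPM, a log2 fold change of -0.58 ± 0.18 (edgeR, adjusted p = 0.0453). This call sat at the threshold: it was lost in 6 of the 10 alternatives with all samples and in 7 of the 8 fits that left out a sample, kept only without iEC C (adjusted p = 0.0207), and reached an adjusted p of 0.112 without iEC E.

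ACE encodes angiotensin-converting enzyme, the endothelial peptidase that makes angiotensin II and breaks down bradykinin (ENSG00000159640, chromosome 17, 63477061 to 63498380, plus strand). Its level was 20.9, 6.57, 22.7 and 23.6 CPM in iEC and 9.62, 21.6, 21.9 and 8.97 CPM in iREC. In each group some samples were high and some low, with iEC D the lowest of all 8. The log2 fold change was -0.25 ± 0.44 (edgeR, adjusted p = 0.722). An unnamed neighbour on the same strand, AC113554.1, covers 23.9% of the exon bases of ACE in GENCODE 29, so the assignment of reads there is uncertain. In FPKM, ECE1 at 103 ± 28.5 in iEC and 67.7 ± 4.39 in iREC stood far above ACE at 2.20 ± 0.968 and 1.82 ± 0.836.

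EDNRB encodes the B-type endothelin receptor (ENSG00000136160, chromosome 13, 77895481 to 77975529, minus strand). It had few reads: 7, 10, 4 and 21 counts in iEC and 54, 19, 27 and 106 counts in iREC, or 0.455, 0.632, 0.237 and 1.503 CPM against 3.53, 1.36, 1.65 and 6.94 CPM. The groups overlapped, since iEC F lay above iREC D, and F was the highest sample of each group. The mean rose from 0.707 ± 0.555 to 3.37 ± 2.57 CPM, a log2 fold change of 2.26 ± 0.68 (edgeR, adjusted p = 0.0385). With limma-voom the call was lost (adjusted p = 0.0520), as it was without iEC C, iEC D, iEC E, iREC C or iREC F, where the adjusted p ran up to 0.100 and the log2 fold change was 1.63 without iREC F and 2.91 without iEC F. Even in iREC the gene stood at 0.593 ± 0.457 FPKM, rank 11614 of the protein-coding genes listed. In iREC the sums of the mural, fibroblast or mesenchymal and epithelial lists were also highest in F. The other iREC samples of EDNRB were ordered D, E, C from low to high. In these samples the fibroblast or mesenchymal and the epithelial sums were ordered C, E, D, and the mural sum E, D, C. The part of these lists in the EDNRB result was not tested.

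CALCRL encodes the calcitonin receptor-like receptor, which binds adrenomedullin when paired with RAMP2 or RAMP3 and calcitonin gene-related peptide when paired with RAMP1 (ENSG00000064989, chromosome 2, 187343129 to 187448460, minus strand). It measured 151, 108, 115 and 72.2 CPM in iEC and 223, 193, 257 and 72.4 CPM in iREC. In C, D and E the iREC samples lay above every iEC sample, while iREC F lay beside the lowest iEC sample. The log2 fold change of 0.74 ± 0.36 did not pass (edgeR, adjusted p = 0.166). Without iREC F it was 1.01 and passed (adjusted p = 0.0116), the only 1 of 18 alternatives in which it did, over a range of 0.0116 to 0.364.

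RAMP2 encodes the partner that brings CALCRL to the membrane as an adrenomedullin receptor (ENSG00000131477, chromosome 17, 42758447 to 42763041, plus strand). Its counts were 117, 118, 37 and 73 in iEC and 108, 96, 109 and 105 in iREC, or 7.61, 7.46, 2.19 and 5.23 CPM against 7.07, 6.85, 6.66 and 6.88 CPM. The iREC samples were nearly alike and fell within the iEC range, in which iEC E was low. The log2 fold change was 0.29 ± 0.35 (edgeR, adjusted p = 0.591). RAMP2-AS1, on the opposite strand, covers 35.9% of the exon bases of RAMP2 and had up to 54 counts in a sample; the use of strand in counting is not given in the sources used here, so reads of the pair may be mixed.

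NPR1 encodes the guanylyl cyclase receptor for atrial and B-type natriuretic peptide (ENSG00000169418, chromosome 1, 153678637 to 153693992, plus strand). It measured 78.9, 70.6, 35.99 and 47.0 CPM in iEC and 178, 137, 194 and 82.1 CPM in iREC. No sample of the groups overlapped, although iREC F was close to iEC C. The mean rose from 58.1 ± 19.99 to 148 ± 50.002 CPM, a log2 fold change of 1.35 ± 0.32 (edgeR, adjusted p = 0.0132). The gene was called in all 18 alternatives, with a log2 fold change of 1.18 to 1.54 and an adjusted p of at most 0.0390.

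**Figure D2:**
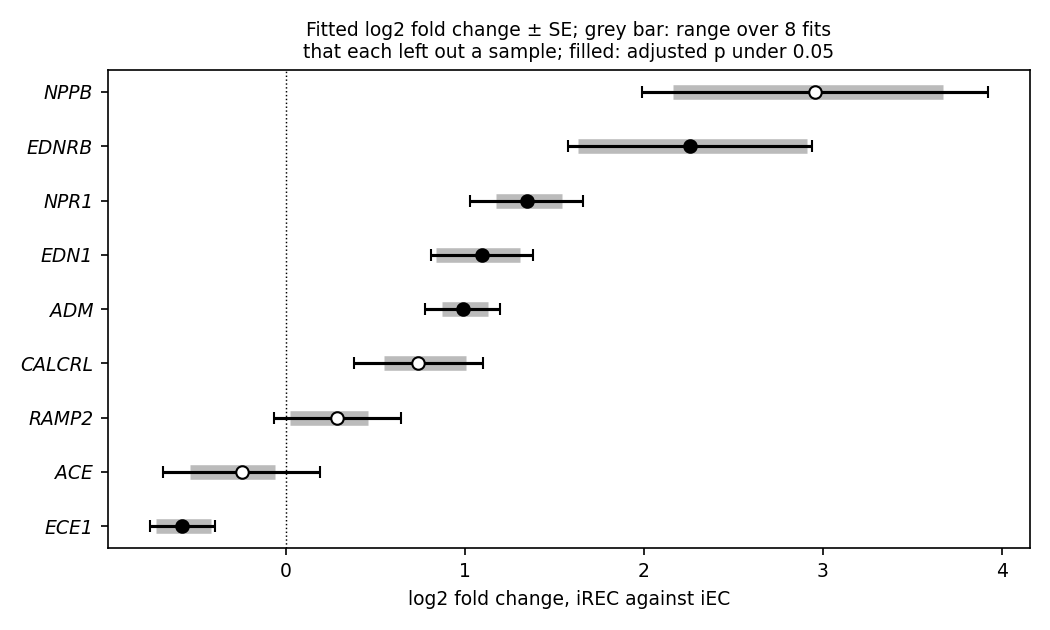
Fitted log2 fold change of iREC against iEC for the 9 measured members (points, with SE), filled where the adjusted p was under 0.05, with a grey bar for the range over 8 fits, each without 1 sample. No bar crosses 0, and the bar of NPPB is the widest, from 2.16 to 3.67.

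The library iREC F was the lowest of its group for 6 members (EDN1, ADM, ECE1, ACE, CALCRL and NPR1) and the highest for 2 (NPPB and EDNRB). Without it the log2 fold changes of EDN1, ADM and NPR1 were 1.31, 1.13 and 1.54, and all 3 remained called. The sum of the 12 endothelial markers in iREC F was 4575 CPM, against 7898 to 10267.5 CPM in iREC C, D and E; its part in these values was not tested. In the authors' deposited table the 5 called members and NPPB had an adjusted p under 0.05, 6 of 9 against 16.3% of its 30386 genes. That 16.3% covers all genes listed, including those too low to be tested here. All 9 members were tested here, and edgeR called 25.0% of the 15330 genes tested. The deposited log2 fold change of NPPB was 2.93 (adjusted p = 0.0277). The DESeq2 alternative gave the same NPPB values to these digits from the same counts, so the deposited result is not separate evidence.

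**Figure D3:**
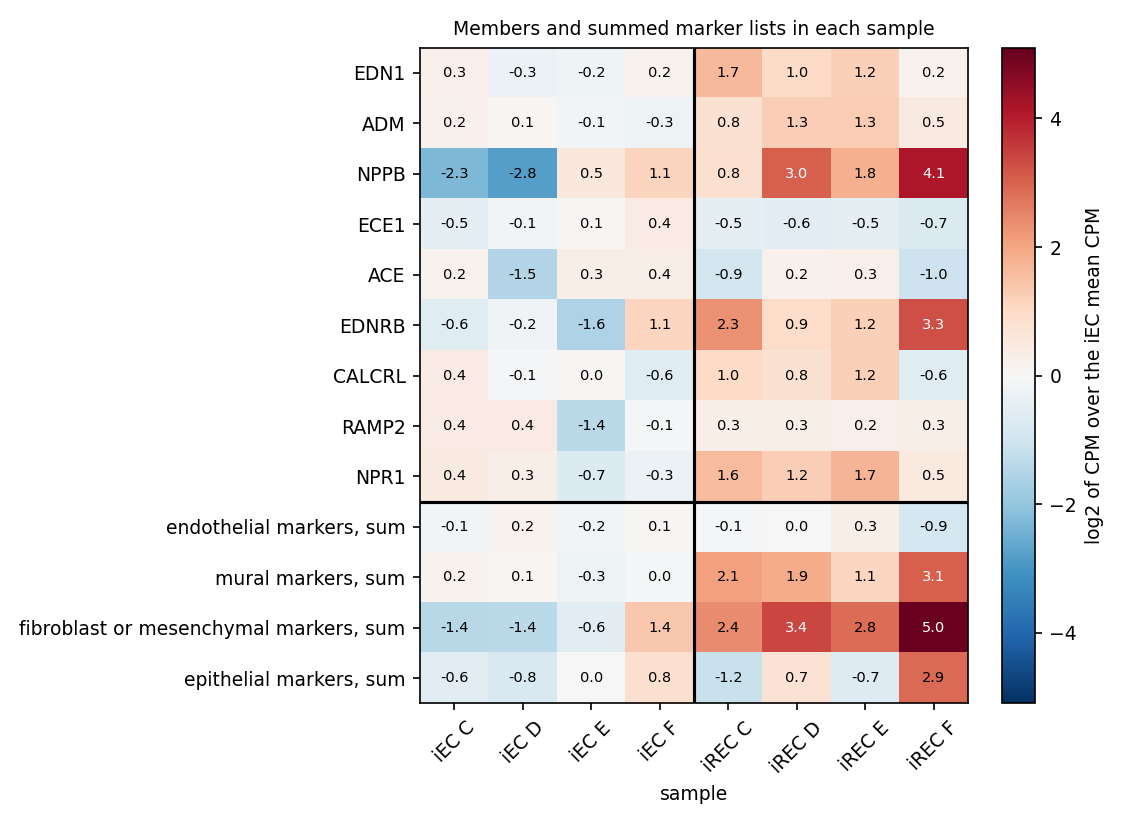
Each measured member and the summed endothelial, mural, fibroblast or mesenchymal and epithelial lists by sample. Values are log2 of CPM over the iEC mean CPM, with iEC to the left and iREC to the right of the line. The column of iREC F is lowest among iREC for EDN1, ADM, ECE1, ACE, CALCRL and NPR1 and for the endothelial sum. It is highest for NPPB, EDNRB and the mural, mesenchymal and epithelial sums.

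The other genes of these pathways comprised 66 genes, of which 62 had an entry and 45 were tested. Of the 45, 15 rose and 6 fell in iREC (edgeR, adjusted p under 0.05), where 13.2% of all genes tested were called higher and 11.7% lower, with a median log2 fold change of 0.02 over the 45 (also with CORIN set at its lower bound) beside 0.02 over all genes tested. Effectors of cyclic AMP, cyclic GMP and G protein signalling made up 26 of the 45 genes tested and 14 of the 21 called.

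Around endothelin, 2 further genes were tested and 1 rose, where 13.2% of all genes tested were called higher. EDNRA, the A-type receptor known from smooth muscle and other mural cells, measured 0.195, 0.190, 0.474 and 1.72 CPM in iEC and 2.22, 5.35, 3.11 and 20.7 CPM in iREC (chromosome 4, 147480917 to 147544954). Every iREC sample lay above every iEC sample, and F was the highest in both groups. The log2 fold change was 3.62 ± 0.93 (edgeR, adjusted p = 0.0202), with the call lost without iEC C or iEC E (adjusted p up to 0.0645). It was 4.72 without iEC F and 2.48 without iREC F. The mural sum was 442 to 1731 CPM in iREC and 173 to 239 CPM in iEC, highest in iREC F as for EDNRA. TAGLN alone gave 732, 557, 318 and 870 CPM of the iREC sums. TAGLN, MYH11 and NOTCH3 were called higher in iREC, while PDGFRB, CSPG4 and ACTA2 were not called. RGS5 was called lower, at 116 ± 46.2 CPM in iEC and 43.9 ± 19.0 CPM in iREC. Among the iREC samples EDNRA was ordered C, E, D, F, the same order as the fibroblast or mesenchymal and the epithelial sums. The mural sum was ordered E, D, C, F. The part of these lists in the EDNRA result was not tested. MME, the membrane peptidase neprilysin that degrades several of these peptides, had means of 48.9 ± 11.99 and 156 ± 154 CPM, with iREC F at 382 CPM, and did not pass (log2 fold change 1.68 ± 0.58; edgeR, adjusted p = 0.0648). It passed in 4 of 18 alternatives (without the filter, with DESeq2, without iREC C and without iREC E), over an adjusted p of 0.0105 to 0.166, and its log2 fold change without iREC F was 0.73. The other endothelin ligand genes were near the limit of detection in iEC: EDN2 had 1, 1, 0 and 4 counts there and 0, 13, 5 and 56 in iREC, and EDN3 had 0 counts in all iEC samples and 2, 11, 6 and 54 in iREC.

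EDNRB made up 63.8, 71.6, 27.4 and 39.8% of the summed FPKM of EDNRA and EDNRB in iEC and 54.6, 16.1, 28.6 and 20.2% in iREC. The shares overlapped, with means of 50.7 ± 20.6% and 29.9 ± 17.3% (exact two-sided permutation test, p = 0.200; Benjamini-Hochberg adjusted p = 0.300 over 3 shares). With 4 samples in each group the smallest p this test allows is 0.0286.

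Around angiotensin, AGTR1, the main angiotensin II receptor gene, rose. It had 0, 1, 6 and 2 counts in iEC and 12, 31, 17 and 37 in iREC (edgeR, adjusted p = 0.00969), so iREC lay above iEC in every sample, at a low level. AGT, the angiotensinogen gene, had at most 1 count in an iEC sample and 3 to 20 counts in iREC.

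Around adrenomedullin, GPR182, an endothelial receptor gene formerly listed as an adrenomedullin receptor, rose. It was scarce, with 2, 5, 1 and 0 counts in iEC and 30, 19, 60 and 20 in iREC (edgeR, adjusted p = 0.00378). All iREC samples of GPR182 lay above all iEC samples. PAM, whose enzyme amidates adrenomedullin and other peptides, was at 149.6 ± 7.67 and 124 ± 11.8 CPM and did not pass (log2 fold change -0.27 ± 0.11; edgeR, adjusted p = 0.0944), except without iREC F (0.0416).

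RAMP1, the partner that favours calcitonin gene-related peptide, had 2, 4, 8 and 0 counts in iEC and 5, 10, 20 and 7 in iREC, too few to be tested. RAMP2 made up 98.4, 96.9, 83.3 and 100% of the summed FPKM of RAMP1 and RAMP2 in iEC and 95.9, 91.2, 85.4 and 94.2% in iREC. RAMP2 was the larger part of the sum in every sample, and the means of 94.7 ± 7.70% and 91.7 ± 4.59% overlapped (exact two-sided permutation test, p = 0.486, adjusted p = 0.486). RAMP3 is not part of this sum. Per length, CALCRL at 17.9 ± 4.90 FPKM in iEC and 29.7 ± 12.7 in iREC stood above RAMP2 at 4.85 ± 2.14 and 5.88 ± 0.164 FPKM.

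Around the natriuretic peptides, 6 further genes were tested, of which 2 rose, against 13.2% of all genes tested. NPR3, the clearance receptor gene (chromosome 5, 32689070 to 32791724), measured 0.390, 11.8, 0.533 and 0.787 CPM in iEC and 599, 1110.2, 1233 and 922 CPM in iREC. Its iEC samples were near the limit of detection except iEC D, with 186 counts against 6 to 11 in the others, while the iREC samples had 9153 to 20193 counts. The log2 fold change was 8.16 ± 1.12 (edgeR, adjusted p = 0.000919), and it was 10.71 without iEC D, 9.56 with limma-voom and 9.29 with the sample letter as a block. CORIN encodes a protease that activates the precursor of atrial natriuretic peptide. It had 2 counts in each iEC sample and 56, 51, 71 and 65 in iREC (edgeR, adjusted p = 2.54e-05). NPR2, the receptor for C-type natriuretic peptide, was at 25.0 ± 1.18 and 21.4 ± 2.06 CPM and did not pass (log2 fold change -0.22 ± 0.13; edgeR, adjusted p = 0.228). The ligand gene NPPC had 0 to 3 counts per sample and NPPA 0 to 8 counts in iEC and 1 to 15 in iREC; CLCN6, on the opposite strand with up to 885 counts, covers 25.5% of the exon bases of NPPA, so the NPPA counts are uncertain.

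NPR1 made up 71.8, 64.9, 52.6 and 57.4% of the summed FPKM of NPR1, NPR2 and NPR3 in iEC and 34.7, 18.8, 22.9 and 14.3% in iREC. The shares did not overlap. NPR1 was the largest part of the sum in every iEC sample. In every iREC sample it lay below NPR3 and above NPR2, while its own level was higher in iREC. The mean share was 61.7 ± 8.41% in iEC and 22.7 ± 8.77% in iREC, a difference of -39.0 percentage points (exact two-sided permutation test, p = 0.0286, the smallest it allows; adjusted p = 0.0857 over the 3 shares). In iREC the NPR3 level was 96.2 ± 27.2 FPKM beside 28.98 ± 9.69 FPKM for NPR1, and in iEC 0.335 ± 0.555 beside 11.5 ± 3.81 FPKM.

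**Figure D4:**
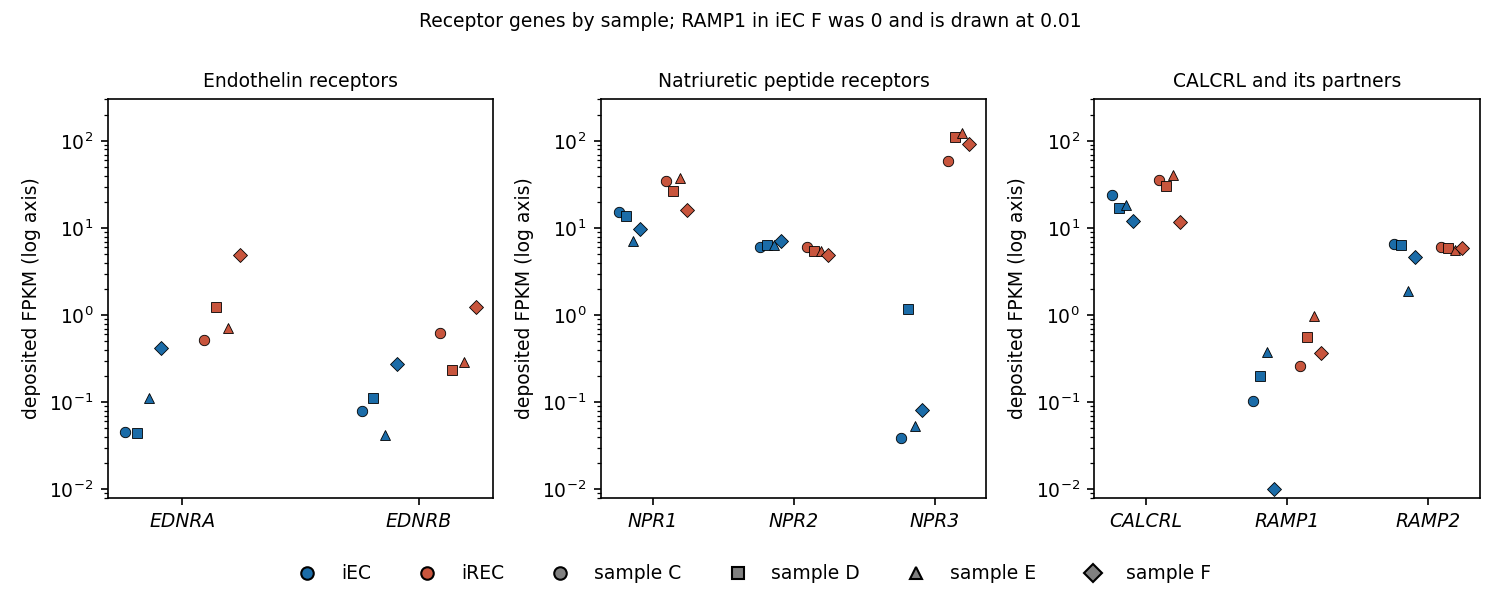
Deposited FPKM of the receptor genes in each sample on a log axis, grouped as endothelin receptors, adrenomedullin receptor and partners, and natriuretic peptide receptors. NPR3 lies below NPR1 in all iEC samples and above it in all iREC samples, and RAMP1 lies below RAMP2 in all 8 samples, with the value of 0 in iEC F drawn at 0.01.

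Among the effectors of the receptors, 26 genes were tested, 9 rose and 5 fell, against 13.2% and 11.7% of all genes tested. PDE3A, a phosphodiesterase that breaks down cyclic AMP and is inhibited by cyclic GMP, measured 2.21, 4.99, 0.8287 and 0.429 CPM in iEC and 81.1, 67.0, 80.1 and 43.4 CPM in iREC (log2 fold change 4.99 ± 0.63; edgeR, adjusted p = 0.000556). Its relative PDE3B moved the other way, with means of 12.5 ± 3.41 and 4.13 ± 1.52 CPM (log2 fold change -1.59 ± 0.33; edgeR, adjusted p = 0.00787). The groups did not overlap for either gene. PRKG1, the cyclic GMP-dependent kinase downstream of NPR1, rose from 2.46 ± 1.85 to 17.8 ± 3.73 CPM (log2 fold change 2.85 ± 0.48; edgeR, adjusted p = 0.00249). Without iEC D, the highest iEC sample for both, the log2 fold changes of PDE3A and PRKG1 were 5.86 and 3.49.

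On the cyclic AMP side, ADCY4, an adenylyl cyclase, rose from 16.3 ± 3.07 to 74.4 ± 35.7 CPM (log2 fold change 2.19 ± 0.32; edgeR, adjusted p = 0.00133). PRKACB, a catalytic subunit of protein kinase A, fell from 119 ± 26.0 to 28.5 ± 3.69 CPM (log2 fold change -2.06 ± 0.18; edgeR, adjusted p = 8.87e-05), and PDE4B, a phosphodiesterase specific for cyclic AMP, fell from 169 ± 37.3 to 41.8 ± 4.55 CPM (log2 fold change -2.01 ± 0.17; edgeR, adjusted p = 8.87e-05). All 3 genes separated the groups in every sample.

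**Figure D5:**
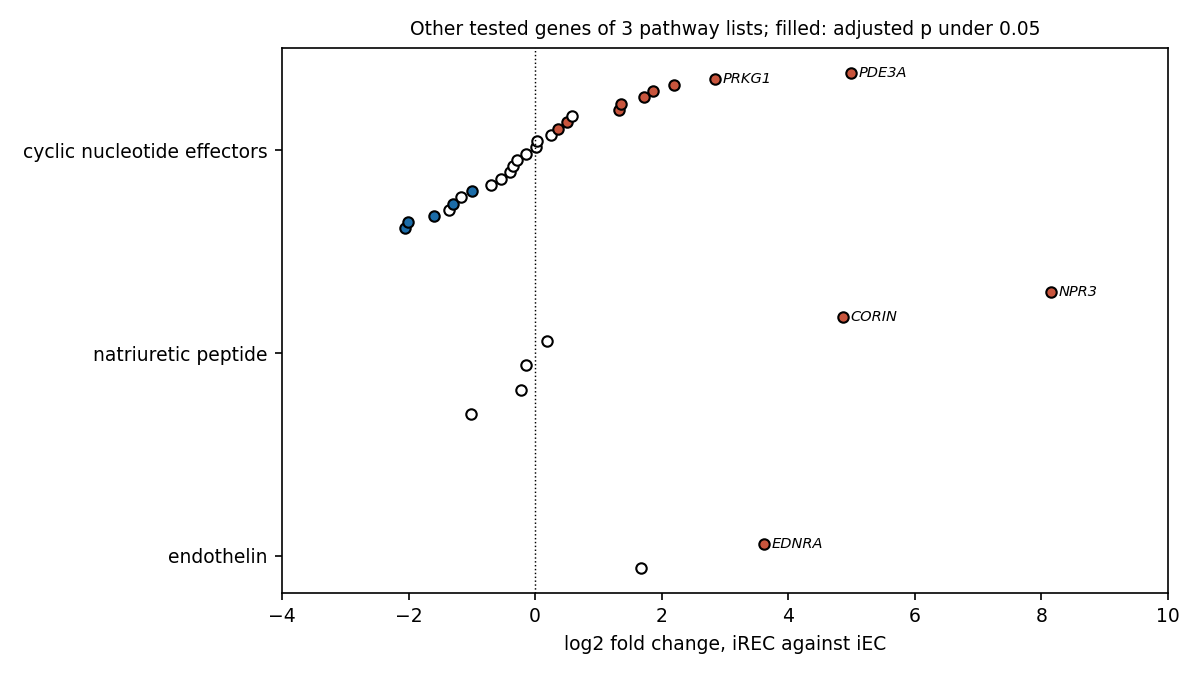
Log2 fold change of iREC against iEC for the tested genes of 3 lists other than the members (endothelin, natriuretic peptide and cyclic nucleotide effectors), grouped by list, filled where the adjusted p was under 0.05. The effectors lie on both sides of 0, with 9 filled above and 5 filled below, and NPR3 lies farthest to the right at 8.16.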

How the data were processed

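Polyadenylated RNA of 4 iEC and 4 iREC samples was sequenced. Reads were processed with fastp and HISAT2 2.0.5 on build hg38, per the submitters' processing notes; the counting program and its strand setting are not given in the sources used here. The authors deposited 1 table with counts and FPKM for each sample, together with their log2 fold changes, p-values and adjusted p-values, per the file headers. A further 8 per-sample columns of normalized values were not used.

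Counts were fitted with edgeR 4.0.16 (R 4.3.3; filterByExpr, TMM, quasi-likelihood test, group as the only term), with Benjamini-Hochberg adjustment over the 15330 genes tested and a threshold of 0.05. CPM are TMM-scaled. Depth ran from 13739364 to 16971865 counts. The number of samples, 4 in each group, limits the precision. Receptor shares were computed from the deposited FPKM and compared by exact permutation (scipy 1.17.1). The planned share of RAMP3 was not computed, the share of RAMP2 was taken over RAMP1 and RAMP2, and the adjustment ran over 3 shares. The procedure was tested on simulated data.

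The members and lists were chosen with earlier results of these data known. Named genes are the members, the 12 close relatives or processing enzymes, and up to 3 called genes in each direction per pathway list whose mean reached 1 CPM in either group. Some genes that this rule names are not reported here. Where the table lists RGS5 more than once, the protein-coding entry was used. Alternatives covered scaling, filters, DESeq2 1.42.0 (on all genes listed, without filterByExpr), limma-voom (limma 3.58.1), the other form of the quasi-likelihood fit, a replicate block, protein-coding genes only and leaving out each sample; for the shares, RPKM from the counts and raw counts. Overlapping exons were taken from GENCODE 29.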

Additional observations from a re-analysis of the deposited data

Results flagged for a closer look

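The ACE level of iEC D was far from the other 3 iEC samples. On the log2 scale of CPM with 0.5 added it was 2.82, against 4.42 to 4.59 in the others, so the gap to the nearest sample took a share of 0.901 of the whole range, above Dixon's 95% critical value for 4 samples. In all, 24 groups of 4 samples were examined, and chance passes about 1 in 20. Without iEC D the log2 fold change of ACE was -0.53, and it did not pass under any alternative (edgeR, DESeq2 or limma-voom, adjusted p = 0.310 to 0.935).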

How the results depend on the processing

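No direction reversed. The number of members called, 5, was 3 with the stricter filter (a mean count of 50 or more, and 1 CPM or more in each sample of either group) and 3 with limma-voom. Over the fits that left out a sample it ran from 2 (without iEC D or iEC E) to 5, and the number of genes called from 2660 (without iREC D) to 4214 (without iREC F). Of the comparisons of a member's value with an alternative, 130 kept their side of the threshold, 22 lost the call and 9 gained it. The median log2 fold change of all genes was 0.15 in edgeR without the filter and 0.16 in DESeq2, which was also run without it, against 0.02 with it. EDNRB could not be tested with the stricter filter, and low counts limit it and the other genes under 1 CPM. The NPR1 share computed from raw counts differed by -52.4 percentage points, and with a sample left out the smallest p allowed is 0.0571.

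The letters C to F are shared by the groups, with no stated meaning. Same-letter samples had correlations of their deviations of 0.17 (C), -0.079 (D), 0.029 (E) and 0.25 (F). The samples iEC C and iEC F correlated best with the iREC sample of their own letter. By contrast, iEC D correlated best with iREC C (0.18) and iEC E with iREC D (0.059), so the letters are not known to pair the samples. With the letter as a replicate block 3334 genes, 5 members (5 higher) and 20 pathway genes were called: NPPB passed (adjusted p = 0.0221) and ECE1 did not (0.102). The exact sign-flip test of the paired shares gave an adjusted p of 0.25 for all 3, and its smallest p is 0.125.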
